A study of Mus musculus with 9 samples.

Results

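*Opalin*, *Hapln2* and *Nfasc* are 3 genes of the myelinated axon among the 689 genes of a deposited RNA-seq table of mouse hemibrains. They were chosen by name from results on these same libraries, and the table itself lists only genes that the authors' own model had called on them. Each symbol is in the table once. The authors had first removed genes of low RPKM, and no further filter was applied here. The levels of the 3 genes are therefore given as a description. Whether they passed the criterion used across the table is listed later and is not read as a test of them. The libraries came from male mice in 3 groups of 3. Young controls (5 months, from JAX) and aged controls (24 months, from NIA) were kept on control diet for 6 weeks. Aged-repopulated mice (24 months, from NIA) received PLX5622, a CSF1R inhibitor that removes microglia, for 2 weeks and then control diet for 4 weeks, during which new microglia filled the brain. The labels give the strain as C57BL/6J, supplier and age cannot be told apart, and 1 frozen hemibrain was used per mouse.

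Oligodendrocytes wrap axons in layers of myelin membrane, and the gaps between neighbouring myelin segments are the nodes of Ranvier, where sodium channels are clustered and the action potential is renewed. On either side lies the paranode, where loops of the myelin sheath are anchored to the axon, and beyond it the juxtaparanode, which holds potassium channels. *Opalin* (also *Tmem10*) encodes a transmembrane glycoprotein of central myelin that is found in the paranodal and inner loops. *Hapln2* (also *Bral1*) encodes a link protein that ties hyaluronan to proteoglycans in the matrix around the node. *Nfasc* encodes neurofascin, an adhesion molecule of the L1 family with a neuronal form at the node and axon initial segment and a glial form at the paranodal loops. Levels are RPKM (read counts scaled to transcript length and to the library's mapped reads) and were given per gene, so the neuronal and glial forms of neurofascin were not separated. In hemibrain RNA, fewer oligodendrocytes and less RNA per oligodendrocyte cannot be told apart.

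All 3 genes lie on the minus strand of GRCm38 (mm10) in the GENCODE M21 annotation. *Opalin* (ENSMUSG00000050121.9) is on chromosome 19 from 41061710 to 41077113, with a longest coding transcript of 1839 nucleotides in 6 exons. *Hapln2* (ENSMUSG00000004894.10) is on chromosome 3 from 88021750 to 88027583, with a transcript of 1711 nucleotides in 7 exons. *Nfasc* (ENSMUSG00000026442.14) is on chromosome 1 from 132564690 to 132741797, with 5 coding transcripts of 3049 to 9739 nucleotides. The promoter windows are shown because 2 of the genes have the same order of group levels and the other does not. They are RefSeq sequences on GRCm38.p6, written 5′ to 3′ on the gene's strand, with 250 bases before the start and the first 30 of the transcript. Capitals mark matches, on either strand, to the Sox letters ACAAAG or ACAATG, the core bound by factors such as SOX10, or to the Myrf letters CTGGCAC or CTGGTAC, both factors being needed for myelin gene expression.
Opalin, chr19:41077084-41077363: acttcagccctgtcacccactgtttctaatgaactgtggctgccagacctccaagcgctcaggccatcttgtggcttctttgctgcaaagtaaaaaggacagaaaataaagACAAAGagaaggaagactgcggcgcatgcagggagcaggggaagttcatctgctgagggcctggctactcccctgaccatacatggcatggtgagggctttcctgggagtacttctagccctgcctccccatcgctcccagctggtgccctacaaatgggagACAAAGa
Hapln2, chr3:88027482-88027761: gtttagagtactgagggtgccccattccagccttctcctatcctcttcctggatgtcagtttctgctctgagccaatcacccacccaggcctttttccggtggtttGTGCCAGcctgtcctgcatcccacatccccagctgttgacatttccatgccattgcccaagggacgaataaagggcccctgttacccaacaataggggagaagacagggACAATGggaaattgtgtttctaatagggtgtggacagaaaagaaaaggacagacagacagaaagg
Nfasc, chr1:132707297-132707576: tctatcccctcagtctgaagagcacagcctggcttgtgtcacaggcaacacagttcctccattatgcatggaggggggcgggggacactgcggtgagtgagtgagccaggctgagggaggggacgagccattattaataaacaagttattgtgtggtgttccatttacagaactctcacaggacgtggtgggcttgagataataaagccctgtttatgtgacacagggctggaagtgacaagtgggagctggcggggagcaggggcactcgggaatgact

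The *Opalin* window held ACAAAG 2 times, at 139 bases before the start and 23 bases after it, and no Myrf match. The *Hapln2* window held ACAATG at 35 bases before the start and, on the other strand, CTGGCAC at 144 bases before it. No match was found in the *Nfasc* window, nor in that of a further *Nfasc* start at chr1:132642829-132643108. Both RefSeq windows lie inside the GENCODE gene, whose own 5′ end was not searched. Among all 32851 promoter windows of this length, 27.4% held a Sox match and 6.65% a Myrf match, so the matches are a description of these letters only.

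*Opalin* measured 19.0, 18.0 and 15.5 RPKM in the young controls (replicates 1, 2 and 3, the order kept throughout). The aged controls had 13.2, 11.3 and 10.9, and the aged-repopulated mice 19.2, 12.1 and 16.1. Every young control was above every aged control. Of the aged-repopulated libraries, replicates 1 and 3 were above all aged controls, and replicate 2 lay among them. Group means were 17.5 ± 1.78 RPKM (SD, n = 3) for young controls, 11.8 ± 1.22 for aged controls and 15.8 ± 3.57 for aged-repopulated mice. On the log2(RPKM + 1) scale, which understates the change of low genes, the difference was -0.53 with a standard error of 0.14 between aged and young controls, and 0.37 with a standard error of 0.14 between aged-repopulated mice and aged controls. The first was the lowest and the second the highest of all 689 genes in the fit as reported, and both share the aged controls. Aged-repopulated mice and young controls overlapped, with a difference of -0.16 and a standard error of 0.14. Without aged-repopulated replicate 1 the difference from aged controls was 0.23, and without replicate 2 it was 0.54.

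**Figure D1:**
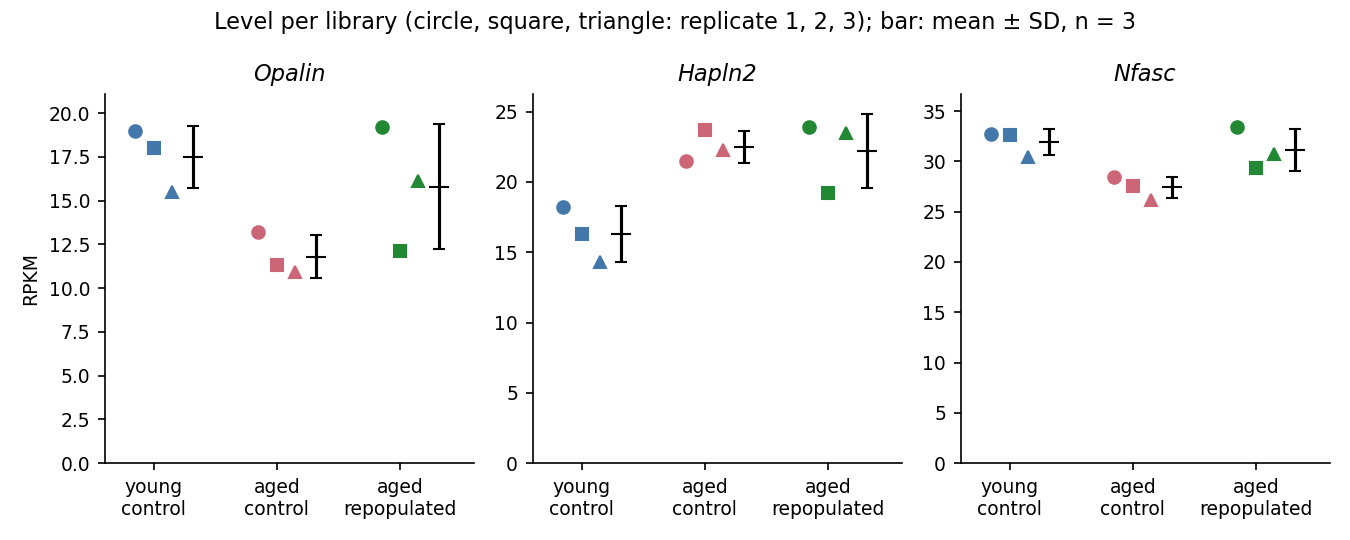
RPKM (vertical axis, from 0) of each gene in the 9 libraries by group, with circles, squares and triangles for replicates 1, 2 and 3 and the mean ± SD beside them (n = 3). *Opalin* and *Nfasc* are lowest in aged controls (means of 11.8 and 27.4), and *Hapln2* is lowest in young controls (16.3).

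*Nfasc* followed the same order of groups over a smaller range. Young controls had 32.7, 32.6 and 30.4 RPKM, aged controls 28.4, 27.5 and 26.2, and aged-repopulated mice 33.4, 29.3 and 30.7. All aged controls were below every library of the other groups, which overlapped with each other. The means were 31.9 ± 1.28 (SD, n = 3), 27.4 ± 1.09 and 31.1 ± 2.07 RPKM. The log2 difference was -0.21 between aged and young controls, 0.18 between aged-repopulated mice and aged controls, and -0.04 between aged-repopulated mice and young controls, each with a standard error of 0.05.

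*Hapln2* had another order. Young controls had 18.2, 16.3 and 14.3 RPKM, aged controls 21.5, 23.7 and 22.3, and aged-repopulated mice 23.9, 19.2 and 23.5. Every library of both aged groups was above every young control, and the aged groups overlapped. The means were 16.3 ± 1.97 (SD, n = 3), 22.5 ± 1.12 and 22.2 ± 2.65 RPKM. On the log2 scale *Hapln2* exceeded its young level by 0.45 in aged controls and by 0.43 after repopulation, each with a standard error of 0.10. The aged groups differed by -0.02 with a standard error of 0.10.

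By the criterion used across the table (limma, adjusted p under 0.05), the 3 genes were called between aged and young controls, where 62.8% of all 689 genes were called, and *Nfasc* lost this call with a correction for transcript length. None of the 3 was called between aged-repopulated mice and aged controls, where 8.71% of the table was called, and *Hapln2* was called between aged-repopulated mice and young controls, where 4.93% was. With age, *Opalin* and *Nfasc* were lower and *Hapln2* higher without overlap, a pattern of 19.4% and 50.7% of the table (70.1% in either direction). *Nfasc* was higher without overlap after repopulation, as 15.2% of the table was (37.4% in either direction). *Hapln2* was higher without overlap in aged-repopulated mice than in young controls, as 31.5% was (42.7% in either direction). Because the genes were chosen on these contrasts, nothing is read from their counts.

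Transcript length moved with these differences across the table. Over 686 genes with an annotated length, Spearman's rho between length and the log2 difference was -0.66 between aged and young controls and 0.65 between aged-repopulated mice and aged controls, as a description across genes that share the libraries. *Nfasc* is longer than 655 of the 686 genes, whereas *Opalin* is longer than 167 and *Hapln2* than 147. Each gene's length was that of its longest transcript, coding ones first, and the length behind the authors' RPKM is not known. The coding transcripts of *Nfasc* span 3049 to 9739 nucleotides, so its rank and its corrected values rest on this choice. With the length trend removed from each library by loess, the difference between aged and young controls was -0.11 for *Nfasc*, -0.71 for *Opalin* and 0.26 for *Hapln2*. The difference between aged-repopulated mice and aged controls was then 0.07 for *Nfasc*, 0.48 for *Opalin* and 0.09 for *Hapln2*. *Opalin* thus moved further from 0 with the correction and *Nfasc* closer to it.

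**Figure D2:**
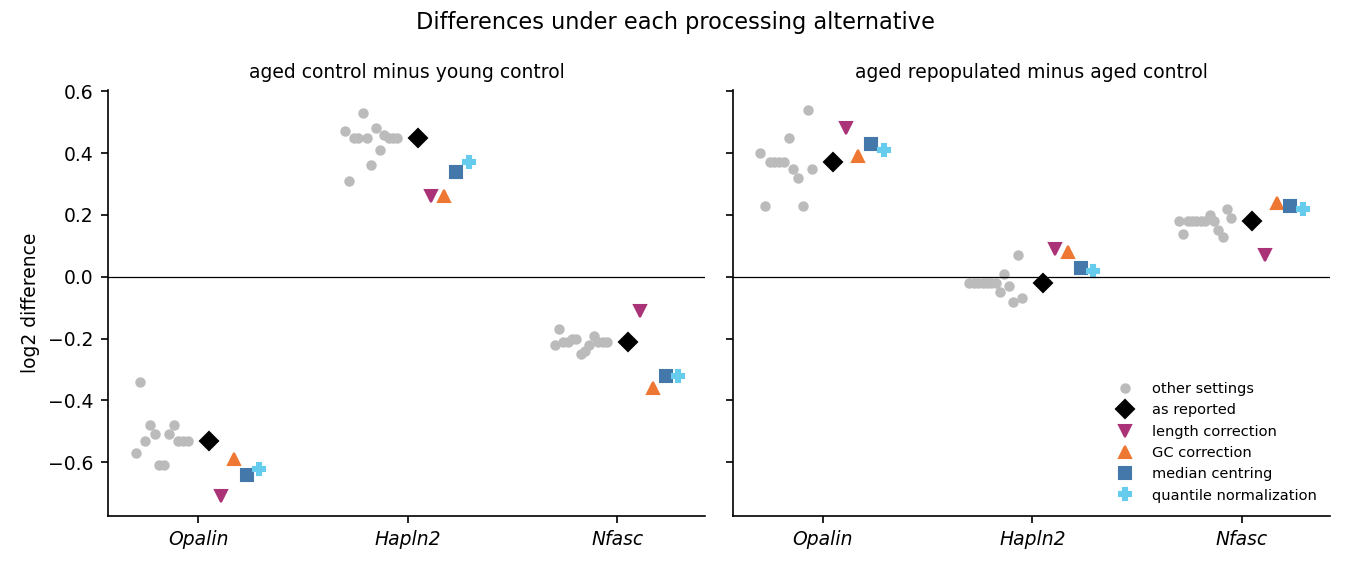
Log2 difference (vertical axis) of the 3 genes between aged and young controls (left) and between aged-repopulated mice and aged controls (right), as reported (black diamond), under the named corrections and under the other settings (grey). *Nfasc* lies between -0.36 and -0.11 on the left, and its value nearest 0 in both panels (-0.11 and 0.07) is that with the length correction.

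The 3 genes differed in their spread. In aged-repopulated mice the coefficient of variation of *Opalin* was 22.6%, rank 11 of 689 from the highest, against a table median of 3.41%. It was 10.2% in young controls and 10.4% in aged controls. For *Hapln2* it was 12.1% in young controls (rank 11, table median 2.79%), 5.00% in aged controls (table median 4.18%) and 11.9% in aged-repopulated mice. For *Nfasc* it was between 3.99% and 6.64%. On the RPKM scale, which is per length, mean levels over the 9 libraries were 30.1 for *Nfasc*, 20.3 for *Hapln2* and 15 for *Opalin*, ranks 200, 336 and 466 of the table.

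In all young controls, aged control replicate 3 and aged-repopulated replicates 1 and 2, the 3 genes deviated in the same direction. After the group means were taken out on the log2 scale, aged-repopulated replicate 2 deviated by -0.34 for *Opalin*, -0.20 for *Hapln2* and -0.08 for *Nfasc*, and aged-repopulated replicate 1 by 0.29, 0.11 and 0.10. Young control replicate 3 was low for each gene, at -0.16, -0.17 and -0.07. Young control replicates 1 (0.11, 0.16 and 0.03) and 2 (0.04, 0.01 and 0.03) were high for each gene. Aged control replicate 3 was low for each, at -0.10, -0.01 and -0.06. The remaining libraries differed between the genes. Among the aged controls *Opalin* was highest in replicate 1 and *Hapln2* in replicate 2, and aged-repopulated replicate 3 was at 0.05, 0.09 and -0.02. Over the 9 libraries, Pearson's r of these deviations was 0.94 for *Opalin* with *Nfasc*, 0.75 for *Opalin* with *Hapln2* and 0.67 for *Hapln2* with *Nfasc*. Without aged-repopulated replicate 2 these were 0.96, 0.46 and 0.46. Among the 688 other genes, *Hapln2* had rank 36 for *Opalin* by this r, and *Nfasc* rank 51 for *Hapln2*. These ranks were 124 and 113 without that library, so many genes of the table had a higher r. The points share their library and its scaling, and no test was made. With group means kept in, r was 0.97 for *Opalin* with *Nfasc*, -0.30 for *Opalin* with *Hapln2* and -0.32 for *Hapln2* with *Nfasc*. *Opalin* and *Hapln2* thus went in opposite directions between young and aged controls while their deviations within groups had a positive r.

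**Figure D3:**
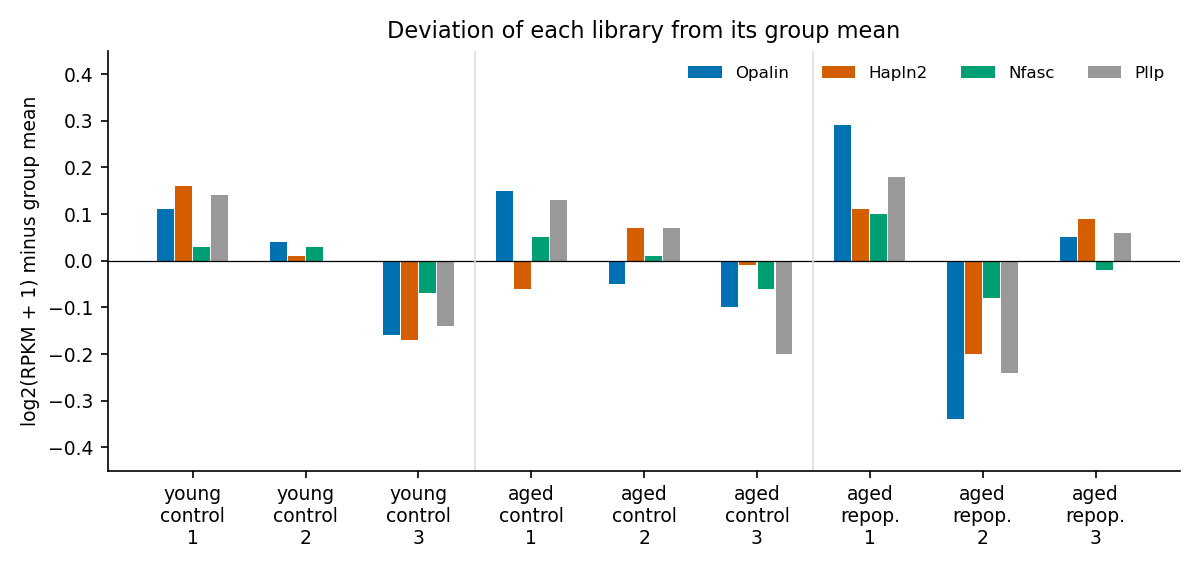
Deviation of log2(RPKM + 1) from the group mean (vertical axis) in each of the 9 libraries, as bars for *Opalin*, *Hapln2*, *Nfasc* and the myelin gene *Pllp*. In aged-repopulated replicate 2 the bars of the 4 genes are between -0.34 and -0.08, and in replicate 1 of that group between 0.10 and 0.29.

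The genes with the pattern most like each member were ranked by Pearson's r of log2 levels over the 9 libraries, of which the group differences are part. For *Opalin* they were *Nfasc* (r = 0.97), *Pllp* (0.92), *Kcnab1* (0.90), *Ccp110* (0.90) and *Chd6* (0.89). *Pllp* encodes plasmolipin, a tetraspan protein of myelin, and *Kcnab1* a beta subunit of the Kv1 potassium channels that gather at the juxtaparanode. For *Nfasc* they were *Opalin* (0.97), *Peg3* (0.92), *Chd6* (0.92), *Sbf1* (0.91) and *Ccp110* (0.89). For *Hapln2* they were *Atp1b3* (0.95), *Dnajc3* (0.94), *Tmem50b* (0.94), *Pink1* (0.94) and *Tpm4* (0.93), which like *Hapln2* had higher means in both aged groups than in young controls. *Atp1b3*, a beta subunit of the sodium-potassium pump, averaged 53.0 RPKM in young, 57.9 in aged and 57.3 in aged-repopulated libraries. By deviations from the group means the leading genes were others. They were *Zcchc24* (0.99), *Usp54* (0.94), *Snx30* (0.94), *Nfasc* (0.94) and *Myh9* (0.92) for *Opalin*. For *Nfasc* they were *Srsf6* (0.95), *Zcchc24* (0.95), *Opalin* (0.94), *Itgb5* (0.94) and *Usp54* (0.94). For *Hapln2* they were *Qk* (0.92), *Gltscr2* (0.91), *Atp1b3* (0.91), *Tmem50b* (0.90) and *4930506M07Rik* (0.90). *Qk* encodes Quaking, an RNA-binding protein that acts on transcripts of myelin genes. The ranks depended on aged-repopulated replicate 2. Without it *Zcchc24* kept rank 1 by deviations for *Opalin*, whereas *Usp54*, *Snx30* and *Myh9* went to ranks 11, 19 and 18, and by levels *Pllp* and *Kcnab1* went from ranks 2 and 3 to 8 and 14.

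Other genes of myelin, oligodendrocytes, the node and its flanks, the surrounding matrix and the axon were taken from lists of 159 genes, of which 19 are in the table. The remaining genes of the lists, among them all listed transcription factors, precursor genes and matrix genes, are not analysed here. With age, 14 of the 19 genes were called (limma, adjusted p under 0.05), 3 higher and 11 lower, where 46.3% of the table was called higher and 16.5% lower. The balance of the table turned with the scaling, from 319 genes higher and 114 lower as reported to 78 and 215 with median centring, 88 and 189 with quantile normalization and 111 and 182 with the GC correction. Of the 19 genes, 1 was then called higher and 14 lower, 1 and 13, and 2 and 12. The median log2 difference was -0.13 for the 19 genes and 0.10 for the table, and their median transcript length was 5671 nucleotides against 3178.5. After the length correction 10 were called, 3 higher and 7 lower. The table then had 158 of 686 genes called, 62 higher and 96 lower. Leaving out a library moved the table's calls with age from 433 to 269 without young control replicate 3. They were 289 without young control replicate 1 and 296 without aged control replicate 2. The table holds only genes the authors had called, and with p values adjusted as if over all genes they tested limma called 0 of the 19 (14 with an unadjusted p under 0.05) and none of *Opalin*, *Hapln2* and *Nfasc*. The calls and adjusted p values of single listed genes below are therefore relative to these preselected genes. They are a description and not an independent test.

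Among the oligodendrocyte genes of this list, *Apod* and *Anln* rose with age, as *Hapln2* was higher. *Apod*, which encodes the lipid-binding apolipoprotein D, reached 78.9, 73.5 and 63.4 RPKM in young controls, against 108, 149 and 166 in aged controls and 150, 86.4 and 110 in aged-repopulated mice. Its log2 difference between aged and young controls was 0.94 with a standard error of 0.20 (limma, adjusted p = 0.0087), and the aged groups overlapped. *Anln*, which encodes the actin- and septin-binding protein anillin, rose from 11.2 ± 1.01 RPKM (SD, n = 3) to 13.9 ± 0.97 (limma, adjusted p = 0.019) and was 13.8 ± 1.74 in aged-repopulated mice. Its call with age was lost with median centring, with quantile normalization, without variance moderation, and without young control replicate 3 or aged control replicate 2 (adjusted p from limma between 0.0532 and 0.093). *Gpcpd1*, a glycerophosphodiesterase, fell from 23.0 ± 0.30 to 17.4 ± 4.77 RPKM (limma, adjusted p = 0.030), with 22.6, 16.6 and 13.1 RPKM in the aged controls. The *Gpcpd1* call was lost without moderation and when any 1 library of the comparison other than aged control replicate 1 was left out, and without aged control replicate 3 the log2 difference was -0.23 in place of -0.41. *Hmgcs1*, an enzyme of cholesterol synthesis, fell from 70.0 ± 3.04 to 62.8 ± 1.17 RPKM (limma, adjusted p = 0.014) and was 67.8 ± 2.63 in aged-repopulated mice. Its call with age was lost without young control replicate 3 (limma, adjusted p = 0.0524).

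*Pllp*, *Omg*, *Cryab* and *Il33* did not pass the test in either comparison. Young controls had 26.9, 24.4 and 21.9 RPKM of *Pllp*, aged controls 22.1, 21.2 and 17.4, and aged-repopulated mice 26.2, 19.3 and 24.0. The *Pllp* groups overlapped, with log2 differences of -0.26 and 0.18, each with a standard error of 0.12 (limma, adjusted p = 0.078 and 0.25). With the length correction *Pllp* and *Omg*, the oligodendrocyte-myelin glycoprotein, were among the 7 genes called lower in aged controls. Median centring called both lower too (limma, adjusted p = 0.0248 and 0.0191). *Pllp* was also called lower with quantile normalization, the GC correction, a fit of only young and aged controls, and without aged-repopulated replicate 2 (adjusted p from limma between 0.0194 and 0.0451). *Cryab*, a small heat shock protein found in oligodendrocytes, was 59.1 ± 8.17 RPKM in aged controls and 73.3 ± 6.43 in aged-repopulated mice (limma, adjusted p = 0.058). *Il33*, an alarmin made by oligodendrocytes and astrocytes, was 30.8 ± 3.62 and 35.8 ± 3.21 RPKM (limma, adjusted p = 0.12). *Cryab* was called in this comparison with median centring, quantile normalization and the length and GC corrections (adjusted p from limma between 0.0181 and 0.0424). In young controls *Cryab* was 61.2 ± 1.96 RPKM and *Il33* 27.5 ± 2.04. For both, every aged-repopulated library was above every young control, as for 31.5% of the table. Against young controls *Il33* was not called as reported (limma, adjusted p = 0.0506). Among other settings, it was called there with the length and GC corrections.

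At the node, *Ank3* encodes ankyrin-G, the scaffold to which the neuronal form of neurofascin binds. It fell from 26.7 ± 0.35 to 24.5 ± 1.07 RPKM with age (limma, adjusted p = 0.021) and was higher again after repopulation, at 27.3 ± 0.66 (limma, adjusted p = 0.045). *Scn1a*, a sodium channel subunit, and *Sptan1*, the alpha spectrin beneath the axonal membrane, fell with age by 0.15 and 0.11 on the log2 scale (limma, adjusted p = 0.033 and 0.020). *Sptbn4*, the beta-IV spectrin of the node, moved the other way, from 23.0 ± 1.24 to 26.6 ± 1.60 RPKM (limma, adjusted p = 0.013), and was 25.1 ± 1.0 in aged-repopulated mice. The transcripts of these 4 genes are between 8018 and 9963 nucleotides long, and after the length correction only *Sptbn4* of the 4 was called with age. The *Sptbn4* call was itself lost with the GC correction (0.04 on the log2 scale), median centring (0.10) and quantile normalization (0.12), against 0.20 as reported. The *Ank3* call after repopulation was lost when any 1 of the 9 libraries other than aged control replicate 1 was left out. Its call with age was lost without young control replicate 1 or 3 or aged control replicate 2, and that of *Sptan1* without young control replicate 1 or aged control replicate 2. *Scn1a* overlapped between young and aged controls. Its call was lost without moderation, and without young control replicate 1 or 3 or aged control replicate 2 or 3 (adjusted p from limma between 0.0644 and 0.116).

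At the paranode and juxtaparanode, *Cntn1*, *Cntnap2* and *Adam23* fell with age. *Cntn1* encodes contactin, an axonal partner of the glial form of neurofascin, and went from 68.5 ± 1.69 to 62.7 ± 1.14 RPKM (limma, adjusted p = 0.021). *Cntnap2*, which encodes the juxtaparanodal protein Caspr2, went from 16.0 ± 0.43 to 14.0 ± 0.19 RPKM (limma, adjusted p = 0.0066), and *Adam23* from 27.6 ± 0.12 to 24.3 ± 1.48 (limma, adjusted p = 0.011). *Kcnab1* was 34.9 ± 0.84 and 33.2 ± 0.98 RPKM and was not called (limma, adjusted p = 0.16). In aged-repopulated mice the means were 66.5 for *Cntn1*, 14.7 for *Cntnap2*, 25.8 for *Adam23* and 34.4 for *Kcnab1*, and none of the 4 was called against aged controls. Of the relatives of neurofascin, *Chl1* is in the table and fell from 24.8 ± 0.59 to 22.1 ± 0.94 RPKM with age (limma, adjusted p = 0.017), with 23.0 ± 1.28 after repopulation. No other *Hapln* gene of the lists was analysed here. The axonal microtubule genes *Map1a* and *Map1b* fell with age by 0.18 and 0.25 on the log2 scale (limma, adjusted p = 0.0079 and 0.0066). With the length correction *Cntn1*, *Cntnap2*, *Chl1*, *Map1a* and *Map1b* lost the call with age (-0.13 to -0.07), *Adam23* kept it and *Kcnab1* gained it (-0.16). *Kcnab1* was also called lower with age with median centring and quantile normalization. The *Cntn1* call with age was lost without young control replicate 1 or 3 or aged control replicate 3, and that of *Chl1* without young control replicate 3.

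**Figure D4:**
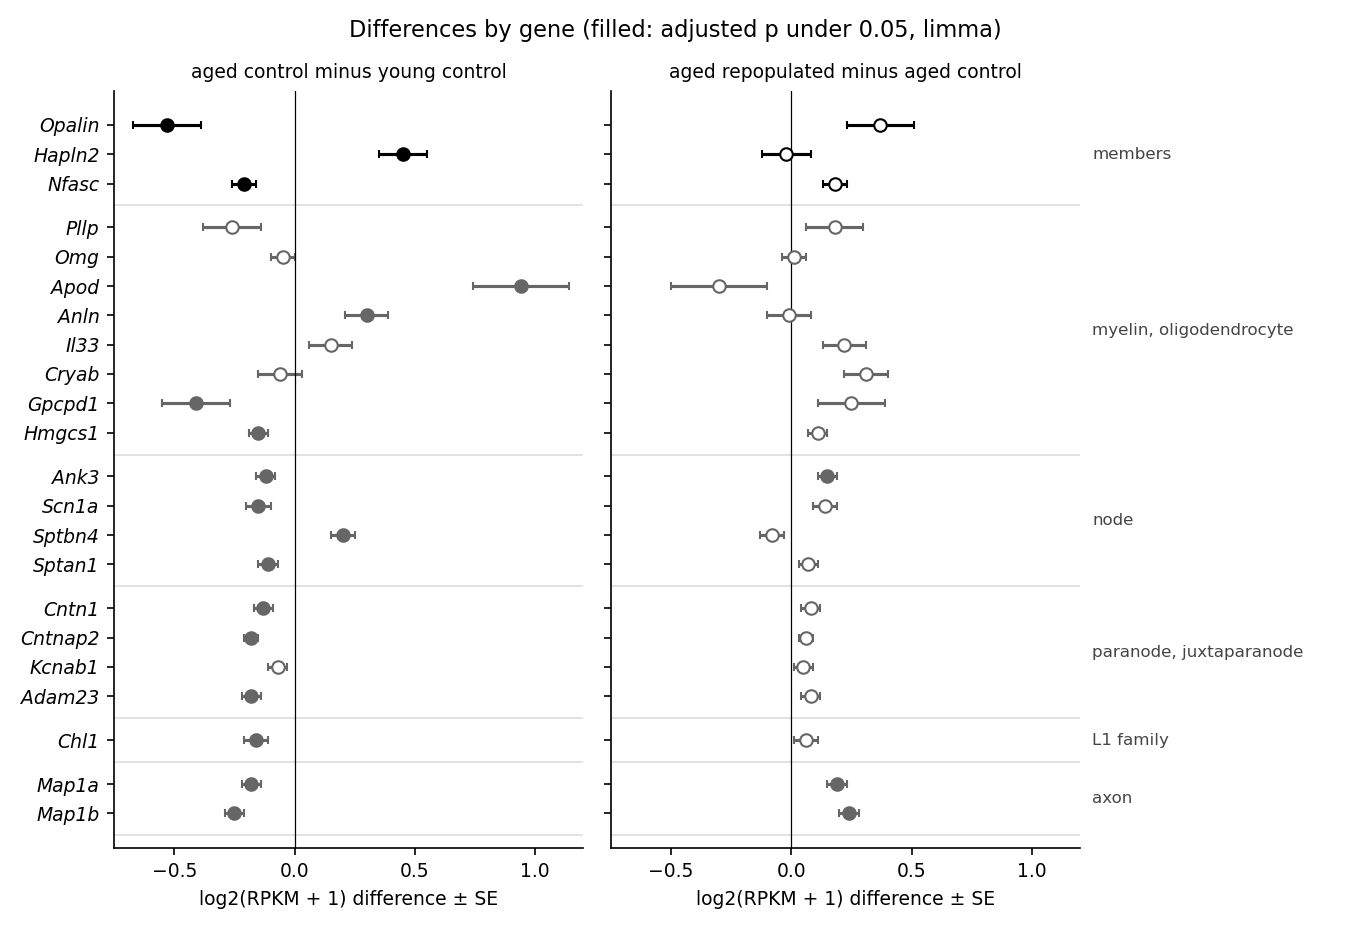
Difference in log2(RPKM + 1) with its standard error (horizontal axis) for the 3 genes (black) and the 19 listed genes (grey), between aged and young controls (left) and between aged-repopulated mice and aged controls (right), filled where the adjusted p from limma was under 0.05. On the left 15 of the 19 listed genes are below 0, and on the right 16 are above it.

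After repopulation, 3 of the 19 genes were called against aged controls (limma, adjusted p under 0.05), all higher, where 2.9% of the table was called higher and 5.81% lower. That balance turned too, from 20 genes higher and 40 lower to 111 and 22 with median centring, 52 and 21 with quantile normalization and 46 and 24 with the GC correction. The genes called were *Ank3*, *Map1a* and *Map1b*, with log2 differences of 0.15, 0.19 and 0.24, and none of them was called after the length correction. With that correction 6 of 686 genes of the table were called. *Map1a* and *Map1b* also lost the call in a fit of only these groups and without variance moderation. They lost it without young control replicate 2, aged control replicate 2 or 3, or aged-repopulated replicate 3. *Map1a* lost it without young control replicate 1 too. The table's calls moved with these settings, from 60 genes to 141, 5 and 4 without aged control replicates 1, 2 and 3. They were 13 and 4 without young control replicates 1 and 2, and 2 without aged-repopulated replicate 3. In a fit of only these groups 5 genes were called, and 5 without moderation. Counts of listed genes under these settings are therefore not specific to the listed genes. For 7 of the 19 genes, every aged-repopulated library was above every aged control, against 15.2% of the table. For 0 of the 19 every aged-repopulated library was below every aged control, against 22.2% of the table. Both counts are on RPKM without rescaling. The median difference was 0.08 for the 19 genes and -0.05 for the table. Between aged-repopulated mice and young controls 0 of the 19 genes were called by limma and 7 had an unadjusted p under 0.05, where 4.21% of the table was called higher and 0.726% lower.

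Markers of other cell types moved between the same libraries, and their part in the values above was not tested. The summed RPKM of the 8 microglial markers in the table, of 14 listed, ranged from 155 to 161 in young controls, 229 to 272 in aged controls and 219 to 318 after repopulation. It was highest in aged-repopulated replicate 1 and lowest of that group in replicate 2, as were *Opalin*, *Hapln2* and *Nfasc*. The 4 neuronal markers, of 10 listed, summed to 676 to 700, 736 to 802 and 721 to 731 RPKM in the 3 groups, and the 4 endothelial markers, of 10 listed, to 65.5 to 66.6, 62.4 to 69.1 and 52.4 to 66.8. These sums join markers that went in opposite directions. With age limma called 3 neuronal markers higher and 1 lower, and 2 endothelial markers higher and 1 lower. The shares of the table were 46.3% called higher and 16.5% lower. Of the 9 astrocyte markers, *Gjb6* alone is in the table, at 21.4 to 23.3, 25.2 to 27.6 and 23.5 to 26.0 RPKM. No listed marker of the choroid plexus or of the cerebellum and hindbrain is in the table, so the evenness of the dissection was not tested. Summed over the 689 genes, RPKM came to 22242 to 22330 in young, 23629 to 24853 in aged and 22861 to 23632 in aged-repopulated libraries, and read depth is unknown.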

How the data were processed

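RNA-seq libraries were made from frozen hemibrains of 3 young and 3 aged control mice and 3 mice with repopulated microglia. The authors called bases with CASAVA 1.8.2 (named in the submitters' processing notes), aligned reads with ELAND to mm10 and computed RPKM per gene. The deposited RPKM table lists the 689 genes that their generalized linear model called, without read counts. Its 5 columns of F, t and p values of the authors' model were not used, and 0 library columns were left unmapped. The counting tool is not given in the sources used here. The labels give no pairing or batch.

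Whole-read steps were sought in 241 genes with a single transcript. The best mean cosine per library was 0.168 to 0.213, where perfect steps would give 1, so depth is unknown and precision rests on the spread between libraries.

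log2(RPKM + 1) was modelled over the 9 libraries together (limma 3.58.1, R 4.3.3), and p values were adjusted by Benjamini-Hochberg across the 689 genes, with calls at 0.05. On simulated data with 200 of 689 genes changed between aged and young controls, simulated log2 changes of 0.1, 0.2 and 0.4 were called for 0.0%, 77.0% and 98.0% of those genes. The simulated noise was independent for each gene and library, so deviations shared between genes were not simulated. The number of changed genes was fixed, whereas 62.8% of the table was called with age and 8.71% after repopulation. The adjustment depends on that share, so the simulated percentages need not hold for either comparison. Calls among the unchanged genes are not given here. Lengths and GC content came from GENCODE M21 (686 symbols matched, 19 through an older symbol). Figures used Python 3.11.15 and matplotlib 3.10.9.

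The members, the gene lists and the naming rule were chosen with earlier results of these data known. The rule names the 3 members, listed genes called in any comparison (up to 5 per list and comparison), listed genes of the same families, and the 5 genes most like each member by each measure. *Omg*, *Cryab* and *Il33*, which it does not cover, were named after their values were seen.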

Additional observations from a re-analysis of the deposited data

How the results depend on the processing

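The alternatives were pseudocounts of 0.1 and 10, median centring, quantile normalization, loess corrections for transcript length and GC content, a minimum mean of 20 RPKM (341 genes, without *Opalin*), fits restricted to both groups of a comparison or without variance moderation, a threshold of 0.025, adjustment as if over all genes the authors tested, and each library left out in turn. Centring moved the table's median difference with age from 0.10 to -0.01. Under every alternative run, *Opalin* kept its direction with age (-0.71 to -0.34) and after repopulation (0.23 to 0.54), and *Hapln2* against young controls in both aged groups (0.26 to 0.53 and 0.29 to 0.52). The difference with age was 0.26 for *Hapln2* with the length or GC correction. For *Nfasc* it was -0.32 with centring or quantile normalization, -0.11 with the length correction and -0.36 with the GC correction. After repopulation *Nfasc* was 0.07 against aged controls with the length correction, and against young controls -0.12 with the GC correction. The causes were not tested.

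*Hapln2* was not called between aged-repopulated mice and young controls without young control replicate 2 or 3, aged control replicate 3, or aged-repopulated replicate 1 or 3, with quantile normalization, in the fit of those groups or without moderation (0.34 to 0.43). Against aged controls, *Opalin* was called after repopulation without aged-repopulated replicate 2 and with centring, and *Nfasc* without aged control replicate 1, with centring, quantile normalization and the GC correction. With adjustment over all genes the authors tested, limma called none of the 3 genes in any comparison.

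Of the 19 listed genes, the number called between aged and young controls was 7 to 15 with a library left out (7 without young control replicate 3, 9 without replicate 1 or aged control replicate 2) and 0 with that adjustment (limma, 14 with an unadjusted p under 0.05). Between aged-repopulated mice and aged controls it was 0 to 6 with a library left out, where the table's calls also moved (above). It was 1 and 0 without young control replicates 1 and 2, and 6, 1 and 0 without aged control replicates 1, 2 and 3. It was 0 without aged-repopulated replicate 3. It was 7 with centring, 1 with the length correction (*Cryab*), 1 at the threshold of 0.025, and 0 by limma in the fit of only those groups (6 with an unadjusted p under 0.05), without moderation (7) and with that adjustment (7). Between aged-repopulated mice and young controls it was 0 to 2 with a library left out, 1 with centring, quantile normalization or the filter at 20 RPKM, and 2 with the length correction, the GC correction or only those groups. Small differences changed sign after repopulation for *Omg* (-0.03 to 0.05 with a library left out, -0.01 without aged control replicate 1), *Anln* (0.04 with centring, 0.00 with quantile normalization, -0.11 to 0.04 with a library left out, 0.03 without aged control replicate 2), *Sptbn4* (0.06 with the GC correction), *Sptan1*, *Cntnap2* and *Chl1* (-0.01, -0.04 and -0.02 with the length correction), and with age for *Cryab* (-0.16 to 0.02 with a library left out).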
